A study of Homo sapiens with 14 samples.

Results

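The subject here is 9 genes that encode the cyclin-dependent kinases of G1 and of S phase entry, their cyclins and an activating phosphatase: CDK2, CDK4, CDK6, CCND1, CCND2, CCND3, CCNE1, CCNE2 and CDC25A. They were taken by symbol out of the 60683 genes counted in each of 14 RNA sequencing libraries, and each had 1 row, so that all 9 could be followed in every library. The study asked how inhibition of CDK4/6 together with CDK2 acts on cancer cell lines. A549, a human lung cancer line, was profiled untreated, after 10 days of 2 µM palbociclib (an inhibitor of CDK4 and CDK6), after 10 days of 0.5 µM indisulam (a sulfonamide that directs the splicing factor RBM39 to degradation), after 10 days of both drugs at these doses, and after 7 days of 0.5 µM PF-06873600 (which inhibits CDK2 as well as CDK4 and CDK6). SUM159, a human breast cancer line, was profiled untreated and after 7 days of 0.5 µM PF-06873600. Each of the 7 groups held 2 libraries, and all groups are unmodified cells as far as the labels go, with no engineered allele named. The 2 lines were grown in different media, and when the untreated cells were harvested is not given in the sources used here.

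As background, D cyclins bind CDK4 or CDK6 in response to growth signals, and these kinases phosphorylate the retinoblastoma protein RB, which otherwise holds E2F transcription factors in check. E cyclins bind CDK2, which completes RB phosphorylation and fires replication origins, and CDC25A removes the inhibitory phosphate that WEE1 places on CDK2. CCNE1, CCNE2 and CDC25A are themselves textbook E2F targets, whereas CCND1 transcription follows mitogen signalling.

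The start-site regions of CDC25A and CCNE1 are shown because these genes moved in opposite directions in 2 of the treatments described below. The CDC25A fall with both drugs and the CCNE1 rise with PF-06873600 in SUM159 were each lost in some alternative fits given below. The sequences are the 250 bases upstream of the RefSeq start site on GRCh38.p14, 5′ to 3′ on the gene's strand, and neither window holds an annotated exon. CDC25A lies at chr3:48188418-48188667 on the minus strand and CCNE1 at chr19:29811741-29811990 on the plus strand. Capitals mark matches, on either strand, to TTTGGCGC, TTTCCCGC, TTTCGCGC or TTTGCCGC (forms of the E2F site), to CCAAT (the CCAAT box) and to GGGCGG (the GC box).
CDC25A: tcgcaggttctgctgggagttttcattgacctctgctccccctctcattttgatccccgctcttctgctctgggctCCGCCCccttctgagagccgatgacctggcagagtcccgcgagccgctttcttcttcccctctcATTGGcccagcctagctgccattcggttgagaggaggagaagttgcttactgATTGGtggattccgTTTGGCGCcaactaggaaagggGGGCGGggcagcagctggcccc
CCNE1: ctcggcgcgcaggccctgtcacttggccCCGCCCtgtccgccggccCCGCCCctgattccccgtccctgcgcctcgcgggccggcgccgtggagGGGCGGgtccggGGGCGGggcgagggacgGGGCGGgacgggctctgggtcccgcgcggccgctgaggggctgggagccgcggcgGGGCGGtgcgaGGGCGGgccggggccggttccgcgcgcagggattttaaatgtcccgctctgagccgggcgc
The CDC25A window held TTTGGCGC from base -44 to -37, counted from the start site, CCAAT boxes on the opposite strand from -110 to -106 and from -58 to -54, and GC boxes whose first bases lie at -174 and -22. None of the 4 E2F forms and no CCAAT box matched in the CCNE1 window, which held 7 GC boxes between -222 and -56. The GC content was 60% for CDC25A and 81.2% for CCNE1. Among 35116 RefSeq windows of this length, 0.55% held TTTGGCGC, 2.79% held any of the 4 forms, 32% held CCAAT and 42.6% held GGGCGG. The core of the CHR element of late cell cycle genes, TTTGAA, was searched as well, matched in neither window and occurred in 13.3% of all windows. No match states only that these letters are not in the window. Windows were also present for CDK4, CDK6 and CCND3, none with an E2F form, and the others were not analysed here: CDK2, CCND1, CCND2 and CCNE2.

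Counts on genes ran from 13060374 to 21149256 per library, and 3 counts, the floor used here for a detectable level, corresponded to 0.142 to 0.23 counts per 1000000 counts on genes (CPM). The series text calls the duplicates technical, so p-values measure only the spread between duplicate libraries, which may be technical. Each model estimates that spread over all its groups rather than over the compared groups alone. Chi-square per degree of freedom between the duplicates ran from 1.61 to 9.57, was highest in the untreated groups of A549 (9.57) and SUM159 (9.05), and exceeded sampling noise in each group. A549 libraries held the epithelial keratins KRT8 and KRT18 (group means of 2126 to 5656 CPM) and CDH1 (95.6 to 172 CPM). SUM159 libraries held VIM (3610 and 4162 CPM), with CDH1, EPCAM and KRT19 below 1 CPM in each group mean. KRT8 and KRT18 were not absent from SUM159 (group means of 169.7 to 417 CPM), and VIM was present in A549, from 665 CPM untreated to 1767 CPM with both drugs. All 4 mesenchymal markers examined (VIM, ZEB1, AXL and CAV1) rose in A549 with indisulam, both drugs and PF-06873600, where 28.0%, 35.1% and 28.5% of all genes rose. With palbociclib 2 of these 4 rose and 0 fell (8.30% and 7.40% of all genes). In SUM159 with PF-06873600, 1 rose and 3 fell (38.1% and 35.6% of all genes). Of 8 markers of epithelial and lung cancer lines, 4 rose and 2 fell in A549 with indisulam (17.5% of all genes fell). With both drugs and with PF-06873600 in A549, 3 rose and 4 fell (30.0% and 27.8% of all genes fell). With both drugs KRT8 went from 2126 to 5004 CPM and AKR1B10 from 6482 to 1554 CPM. The part of these markers in the results below was not tested. ESR1 and PGR were at or below 0.623 CPM in each SUM159 group mean, while ERBB2 was at 120.3 and 128 CPM. The libraries are bulk RNA, in which fewer cells of a type and less RNA per cell cannot be told apart.

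The number of genes that changed differed by treatment, and the test throughout was edgeR's quasi-likelihood F test over all genes, with p-values adjusted by Benjamini-Hochberg and called under 0.05. With palbociclib alone, CDK6, CCND1, CCND3 and CCNE1 rose in A549, 4 genes up and 0 down, where 8.30% of 15780 genes rose and 7.40% fell. A fit of only the compared groups gave fewer calls for palbociclib, 543 up and 406 down among 14341 genes. In that fit 3 of the 8 genes tested rose and 0 fell. With indisulam alone CDK6, CCND1, CCND3 and CCNE1 rose and CDK4 fell, 4 up and 1 down, against 28.0% of genes up and 17.5% down. CCND2, which entered the tests only through libraries where it is high, is left out of the counts that follow. With both drugs 4 of the other 8 genes rose (CDK6, CCND1, CCND3 and CCNE1) and 4 fell (CDK2, CDK4, CCNE2 and CDC25A), against 35.1% up and 30.0% down. With PF-06873600 in A549 all 8 rose, where 28.5% of genes rose and 27.8% fell. In SUM159 the same agent raised 2 (CCND1 and CCNE1) and lowered 3 (CDK2, CDK4 and CDC25A) of the 8, against 38.1% up and 35.6% down among 15055 genes. These A549 comparisons share the untreated libraries, so their results are not independent of each other. The shares of all genes also depend on scaling by total counts. With TMM, another scaling of libraries, 4908 genes rose and 5397 fell with both drugs, against 5544 and 4739 by total counts. For indisulam TMM gave 3613 up and 3558 down, against 4420 and 2757. PF-06873600 and the combination differ in agent and time, and their values stand side by side without a test between them.

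**Figure D1:**
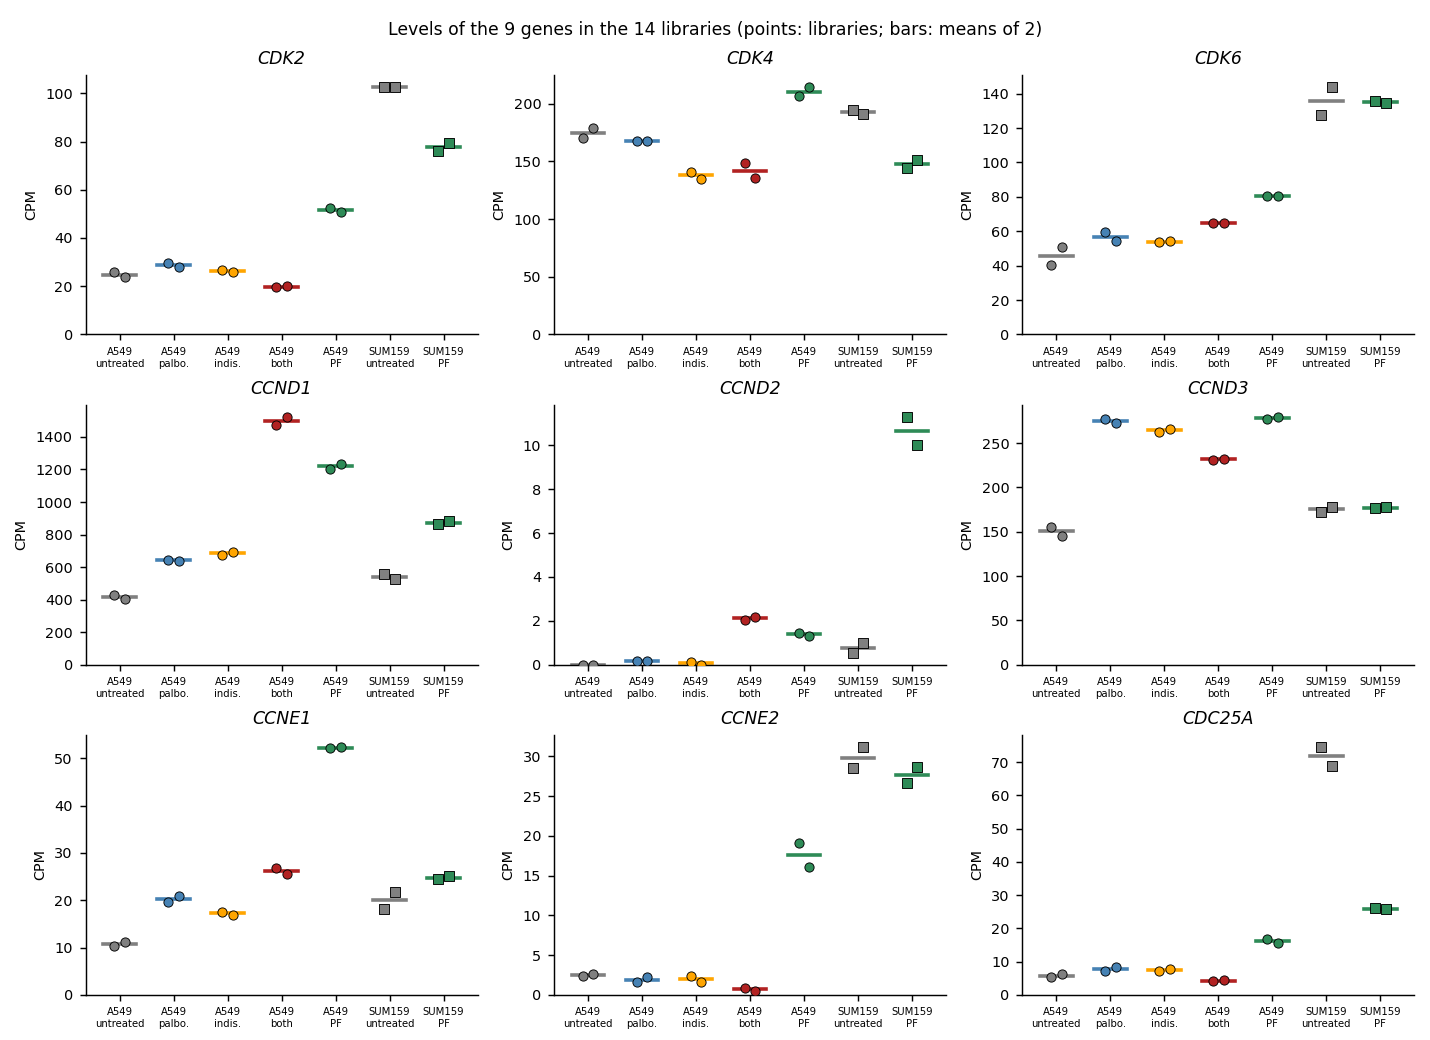
Level of each of the 9 genes in CPM (linear axes from 0) in the 14 libraries. Points are libraries (circles A549, squares SUM159) and bars are means of 2, with palbo., indis., both and PF standing for palbociclib, indisulam, both drugs and PF-06873600. CCND1 is highest with both drugs in A549 (1474 and 1522 CPM), whereas CDK2 and CDC25A are highest in untreated SUM159.

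CCND1, which encodes cyclin D1, was the D cyclin with the most reads per exon length in every library. Untreated A549 libraries had 429 and 406 CPM, palbociclib 646 and 638 CPM, and indisulam 675 and 693 CPM. With both drugs the libraries had 1474 and 1522 CPM, and with PF-06873600 they had 1204 and 1235 CPM. The 5 A549 groups did not overlap, and their order from low to high was untreated, palbociclib, indisulam, PF-06873600 and both drugs. The log2 change of CCND1 against untreated was 0.62 ± 0.05 (SE) with palbociclib and 0.71 ± 0.05 with indisulam (edgeR adjusted p = 3.1e-06 and 8.4e-08). It was 1.84 ± 0.05 with both drugs, a 3.59-fold rise (edgeR adjusted p = 1.0e-12), and 1.55 ± 0.05 with PF-06873600, a 2.92-fold rise (edgeR adjusted p = 1.5e-11). In SUM159, CCND1 went from 555 and 526 CPM untreated to 863 and 884 CPM with PF-06873600, again without overlap. That log2 change was 0.69 ± 0.06, or 1.62-fold (edgeR adjusted p = 1.2e-07), and it was smaller than the change in A549 by 0.85 ± 0.08 on the log2 scale (edgeR adjusted p = 1.7e-08).

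CCND3, which encodes cyclin D3, rose in every A549 treatment. The untreated libraries had 155 and 145 CPM, palbociclib 277 and 273 CPM, and indisulam 263 and 266 CPM. Both drugs gave 231 and 232 CPM, and PF-06873600 gave 277 and 279 CPM. All treated libraries were above both untreated libraries, and the combination was the lowest treated group. The log2 changes of CCND3 against untreated were 0.87 ± 0.05, 0.82 ± 0.05, 0.62 ± 0.05 and 0.89 ± 0.05 in that order (edgeR adjusted p = 1.6e-07, 2.9e-08, 1.4e-07 and 5.2e-09). CCND3 fell with both drugs against palbociclib alone by 0.25 ± 0.05 on the log2 scale (edgeR adjusted p = 0.0011). In SUM159 it stood at 172 and 178 CPM untreated and at 177 and 178 CPM with PF-06873600, a log2 difference of 0.02 ± 0.05 (edgeR adjusted p = 0.79). The response in SUM159 was lower than in A549 by 0.87 ± 0.07 (edgeR adjusted p = 8.5e-09).

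CCND2, which encodes cyclin D2, was at or near 0 in several groups and is given as counts. It had 0 and 0 counts in untreated A549, 2 and 3 with palbociclib and 2 and 0 with indisulam, all at or under the floor of 3 counts per library. With both drugs it had 29 and 34 counts, and with PF-06873600 it had 19 and 21 counts. CCND2 passed the filter on low counts in A549 only through those 4 libraries. Against the floor, the combination was at least 10.5-fold higher than untreated and PF-06873600 at least 6.82-fold higher, values given without a p because the gene was tested only through the libraries where it is high. The ratio of the combination to palbociclib was 12.7 (exact 95% interval 5.16 to 40.4) and to indisulam 31.5 (8.36 to 265). These intervals cover counting error only and are not read as tests. In SUM159, CCND2 went from 9 and 16 counts to 193 and 212 counts, a log2 difference of 3.78 or 13.7-fold, given without an SE or a p for the same reason. That left cyclin D2 at 0.619% ± 0.06 (SD, n = 2) of D cyclin counts per exon length.

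CDK4 and CDK6 encode the kinases that D cyclins activate. CDK4 had 170.1 and 179 CPM in untreated A549, 168 and 168 CPM with palbociclib, and 141 and 135 CPM with indisulam. Both drugs gave 148 and 136 CPM, and PF-06873600 gave 207 and 215 CPM. Indisulam and the combination overlapped each other and lay below the untreated libraries, while PF-06873600 lay above them. The log2 change of CDK4 was -0.34 ± 0.06 with indisulam, -0.30 ± 0.06 with both drugs and 0.27 ± 0.06 with PF-06873600 (edgeR adjusted p = 0.00042, 0.00059 and 0.0015). With palbociclib it was -0.06 ± 0.06 (edgeR adjusted p = 0.59). In SUM159, CDK4 fell from 195 and 192 CPM to 145 and 151 CPM with PF-06873600, a log2 change of -0.38 ± 0.05 (edgeR adjusted p = 1.3e-05), so that the responses of the lines differed by -0.65 ± 0.08 (edgeR adjusted p = 1.4e-06). CDK4 shares 1369 exon bases, 44.2% of its own, with TSPAN31 on the opposite strand. TSPAN31 went from 69.5 ± 9.3 CPM (SD, n = 2) in untreated A549 to 33.3 ± 2.1 CPM with PF-06873600, and from 10.3 ± 1.4 to 16.2 ± 0.87 CPM in SUM159, opposite to CDK4 in both lines. Its part in the CDK4 values was not tested, and it was lower together with CDK4 with indisulam (39.2 ± 2.6 CPM) and with both drugs (31.4 ± 0.48 CPM).

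CDK6 was more variable between untreated libraries. They had 40.2 and 50.7 CPM, palbociclib 59.4 and 54.3 CPM, and indisulam 53.6 and 54.3 CPM. Both drugs gave 64.7 and 65.1 CPM, and PF-06873600 gave 80.7 and 80.7 CPM. All treated A549 libraries lay above both untreated libraries, and palbociclib and indisulam overlapped. The log2 change of CDK6 was 0.51 ± 0.09 with both drugs and 0.83 ± 0.09 with PF-06873600 (edgeR adjusted p = 0.00018 and 2.2e-06). The rises of 0.32 ± 0.09 with palbociclib and 0.25 ± 0.09 with indisulam passed at edgeR adjusted p = 0.028 and 0.04, and both were lost without untreated replicate 1 (0.16 and 0.09 on the log2 scale, edgeR adjusted p = 0.14 and 0.35) and when only the compared groups were fitted (edgeR adjusted p = 0.16 and 0.13). Without either palbociclib library or either indisulam library these 2 calls were lost as well, and TMM scaling ended the indisulam call (log2 0.17, edgeR adjusted p = 0.16). In SUM159, CDK6 was at 128 and 144 CPM untreated and 136 and 134 CPM with PF-06873600, overlapping, with a log2 difference of -0.01 ± 0.06 (edgeR adjusted p = 0.91). The response in SUM159 was lower than in A549 by 0.84 ± 0.12 (edgeR adjusted p = 5.5e-06).

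**Figure D2:**
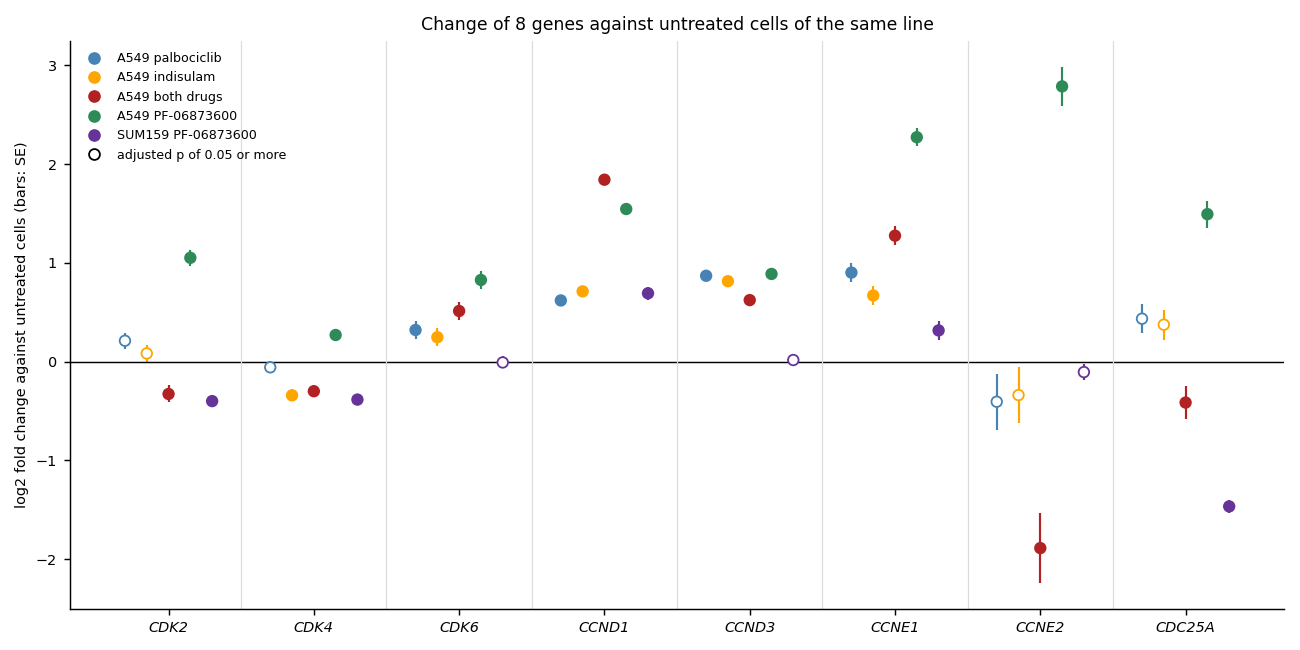
log2 fold change of 8 genes against untreated cells of the same line, with SE as bars, for 5 treatments, from edgeR. Filled points passed an adjusted p of 0.05 and open points did not, and CCND2 is left out because untreated A549 had 0 counts. PF-06873600 lies above 0 for all 8 in A549 and in SUM159 the filled points below 0 are CDK2, CDK4 and CDC25A, and both drugs raise CCND1 and CCNE1 while CCNE2 falls.

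CCNE1, which encodes cyclin E1, rose in every treatment of either line. The untreated A549 libraries had 10.3 and 11.3 CPM, palbociclib 19.5 and 20.8 CPM, and indisulam 17.5 and 16.9 CPM. Both drugs gave 26.9 and 25.5 CPM, and PF-06873600 gave 52.1 and 52.3 CPM. The 5 groups did not overlap, with untreated lowest and PF-06873600 highest. The log2 rise of CCNE1 was 0.90 ± 0.10 with palbociclib, 0.67 ± 0.10 with indisulam and 1.28 ± 0.09 with both drugs (edgeR adjusted p = 2.1e-05, 7.7e-05 and 2.2e-08). It was 2.27 ± 0.09 with PF-06873600, a 4.83-fold rise (edgeR adjusted p = 4.7e-11). In SUM159, CCNE1 went from 18.2 and 21.7 CPM to 24.4 and 25.2 CPM, a log2 rise of 0.32 ± 0.10 (edgeR adjusted p = 0.0086). This rise was 0.19 without untreated replicate 1 (edgeR adjusted p = 0.087) and 0.31 with DESeq2 (adjusted p = 0.06), past neither threshold. It was smaller than in A549 by 1.96 ± 0.13 on the log2 scale (edgeR adjusted p = 4.3e-10).

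CCNE2, which encodes cyclin E2, did not follow CCNE1. Untreated A549 libraries had 2.38 and 2.67 CPM (35 and 40 counts), palbociclib 1.56 and 2.2 CPM, and indisulam 2.35 and 1.65 CPM. Both drugs gave 0.92 and 0.45 CPM (13 and 7 counts), and PF-06873600 gave 19.1 and 16 CPM (249 and 259 counts). The combination libraries were the lowest and did not overlap any other group, the single drugs overlapped each other, and PF-06873600 was far above the rest of A549. CCNE2 fell with both drugs by 1.89 ± 0.35 on the log2 scale, to 3.70-fold lower (edgeR adjusted p = 0.00028), and rose with PF-06873600 by 2.79 ± 0.20, or 6.91-fold (edgeR adjusted p = 3.0e-08). With palbociclib and indisulam the log2 differences were -0.41 ± 0.28 and -0.34 ± 0.28 (edgeR adjusted p = 0.38 and 0.34). In SUM159 it was at 28.5 and 31.1 CPM untreated and at 26.7 and 28.6 CPM with PF-06873600, overlapping, a log2 difference of -0.11 ± 0.08 (edgeR adjusted p = 0.26). The lines' responses differed by -2.89 ± 0.21 (edgeR adjusted p = 1.2e-09). CCNE2 shares 1629 exon bases, 37% of its own, with INTS8 on the opposite strand, and INTS8 was at 56.4 ± 1.6 CPM (SD, n = 2) in untreated A549, 76.2 ± 1.8 CPM with both drugs and 57.6 ± 1.9 CPM with PF-06873600. In SUM159 it was at 71.7 ± 1.3 CPM untreated and 53.5 ± 2.8 CPM with PF-06873600. Its part in the CCNE2 values was not tested.

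CDK2, the kinase partner of the E cyclins, was low in A549 and high in SUM159. Untreated A549 libraries had 25.9 and 23.8 CPM, palbociclib 29.5 and 28.1 CPM, and indisulam 26.9 and 25.8 CPM. Both drugs gave 19.7 and 19.9 CPM, and PF-06873600 gave 52.5 and 50.6 CPM. The combination was below and PF-06873600 above every other A549 library, and indisulam overlapped the untreated group. CDK2 fell with both drugs by 0.33 ± 0.09 on the log2 scale (edgeR adjusted p = 0.004) and rose with PF-06873600 by 1.05 ± 0.08, or 2.07-fold (edgeR adjusted p = 4.4e-08). With palbociclib and indisulam the log2 differences were 0.21 ± 0.08 and 0.08 ± 0.08 (edgeR adjusted p = 0.10 and 0.44). Without untreated replicate 1 the palbociclib difference was 0.27 and passed at edgeR adjusted p = 0.0495. In SUM159, CDK2 fell from 103 and 102 CPM to 75.9 and 79.4 CPM with PF-06873600, a log2 change of -0.40 ± 0.05 or 1.32-fold lower (edgeR adjusted p = 1.1e-05). The lines' responses differed by -1.45 ± 0.09 (edgeR adjusted p = 1.9e-10).

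CDC25A, the phosphatase that activates CDK2, had the largest fall of the 9 genes in SUM159. There it went from 74.5 and 69.0 CPM untreated to 26.1 and 25.9 CPM with PF-06873600, without overlap, a log2 change of -1.47 ± 0.07 or 2.76-fold lower (edgeR adjusted p = 8.3e-11). In A549, where the untreated libraries had 5.3 and 6.2 CPM, the same agent gave 16.9 and 15.6 CPM. That was a log2 rise of 1.49 ± 0.14 or 2.82-fold (edgeR adjusted p = 3.5e-07), and the lines' responses differed by -2.96 ± 0.15 (edgeR adjusted p = 4.9e-12). Palbociclib gave 7.27 and 8.24 CPM and indisulam 7.05 and 7.86 CPM, both above the untreated libraries, with log2 differences of 0.44 ± 0.15 and 0.37 ± 0.15 that did not pass (edgeR adjusted p = 0.064 and 0.055) but did so without untreated replicate 2 (log2 0.55 and 0.49, edgeR adjusted p = 0.046 and 0.041). Both drugs gave 4.11 and 4.51 CPM, below every other A549 library. That fall of 0.41 ± 0.16 on the log2 scale passed at edgeR adjusted p = 0.039 but was lost with DESeq2 (adjusted p = 0.11), without a filter on low counts, with only the compared groups, and without untreated replicate 2 or either combination library (edgeR adjusted p = 0.070 to 0.22 in these 3).

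A question of the design is how the combination in A549 differed from each drug alone. Against palbociclib, 2 of the 8 genes other than CCND2 rose (CCND1 and CCNE1) and 5 fell (CDK2, CDK4, CCND3, CCNE2 and CDC25A), where 33.5% of all genes rose and 26.9% fell. Against indisulam, 3 rose (CDK6, CCND1 and CCNE1) and 4 fell (CDK2, CCND3, CCNE2 and CDC25A), where 22.0% rose and 23.9% fell. CCND1 was 2.33-fold higher than with palbociclib and 2.19-fold higher than with indisulam (log2 1.22 ± 0.05 and 1.13 ± 0.05, edgeR adjusted p = 8.9e-11 and 5.5e-10). CCNE1 was 1.3-fold and 1.52-fold higher (log2 0.37 ± 0.09 and 0.61 ± 0.09, edgeR adjusted p = 0.0018 and 6.1e-05). CDC25A was lower by 0.85 ± 0.16 and 0.79 ± 0.16 on the log2 scale (edgeR adjusted p = 0.0003 and 0.00092), and CDK2 fell by 0.54 ± 0.08 and by 0.41 ± 0.09 (edgeR adjusted p = 7.2e-05 and 0.0013). Without combination replicate 2, CCNE2 and CDK4 lost their calls against palbociclib, which left 3 genes lower, and CCNE2 and CCND3 lost theirs against indisulam, which left 2. The CCND3 call against indisulam was also lost with DESeq2 (adjusted p = 0.053) and without indisulam replicate 2 or combination replicate 1. CDK6 against indisulam (log2 0.27 ± 0.09, edgeR adjusted p = 0.025) was lost when any of the 4 libraries compared was left out.

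The interaction term asks whether the combination differed from the sum of the single-drug changes on the log2 scale. It was above 0 for CCND1 and below 0 for CDK2, CCND3 and CDC25A, 1 and 3 of these 8 genes, where 10.7% and 14.5% of all genes passed in these directions. CCND1 exceeded the sum by 0.51 ± 0.07 (edgeR adjusted p = 0.00015). CCND3 fell short of it, with a term of -1.06 ± 0.08 (edgeR adjusted p = 1.7e-07), and its level with both drugs was below that with each drug alone. For CDK2 the term was -0.62 ± 0.12 and for CDC25A -1.22 ± 0.22 (edgeR adjusted p = 0.0014 and 0.0008). CCNE1 and CCNE2 had terms of -0.30 ± 0.13 and -1.15 ± 0.47, past no threshold (edgeR adjusted p = 0.12 and 0.096).

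The response to PF-06873600 at the same dose and time can be compared between the lines. The difference, SUM159 minus A549, was below 0 and passed the test for all 8 genes other than CCND2, where 27.2% of 17279 genes passed in that direction and 25.8% in the other. For CDK2, CDK4 and CDC25A the change passed in opposite directions in the lines, and for CCND1 and CCNE1 it rose in both and by more in A549. The untreated starting levels differed too. The same 8 genes were higher in untreated SUM159 than in untreated A549, where 41.9% of genes were higher and 36.8% lower. CDC25A was 12.5-fold higher (log2 3.64 ± 0.11), CCNE2 11.8-fold higher (log2 3.56 ± 0.17), CDK2 4.13-fold higher (log2 2.05 ± 0.07) and CDK6 2.99-fold higher (log2 1.58 ± 0.08), with edgeR adjusted p of 1.8e-12 or less. CCND2 was at least 3.82-fold higher against the floor. TMM scaling lowered the median log2 difference of all genes in this comparison by 0.106, and under it CDK4 (log2 0.15 to 0.04, edgeR adjusted p = 0.56) and CCND3 (0.22 to 0.12, edgeR adjusted p = 0.069) were no longer called. The CDK4 call was also lost with DESeq2 (log2 0.06, adjusted p = 0.47), without a filter on low counts, with the compared groups alone, and without 3 of the 4 libraries in turn.

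The make-up of each family was followed per library as a share of its counts per exon length, which library scaling does not change. With 2 libraries against 2, an exact permutation test cannot go below p = 0.33, so the shares are given without a test. CCND1 made up 77.1% ± 0.15 (SD, n = 2 here and below) of D cyclins in untreated A549, 73.9% ± 0.07 with palbociclib and 75.8% ± 0.18 with indisulam. It made up 88.6% ± 0.21 with both drugs and 84.1% ± 0.18 with PF-06873600, and in SUM159 it went from 78.8% ± 1.0 to 85.1% ± 0.21. CCND3 thus went from 22.9% ± 0.15 of D cyclins in untreated A549 to 11.3% ± 0.21 with both drugs.

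Among E cyclins the lines differed more. CCNE1 made up 88.4% ± 0.20 in untreated A549, 95.1% ± 0.92 with palbociclib, 93.9% ± 1.3 with indisulam and 98.6% ± 0.64 with both drugs. With PF-06873600 it made up 84.2% ± 1.7, near the untreated share, although both E cyclins had risen. In SUM159, CCNE1 made up 54.4% ± 1.6 untreated and 61.6% ± 0.69 with PF-06873600. CDK4 made up 93.8% ± 0.74 of CDK4 plus CDK6 in untreated A549 and 84.9% ± 1.2 in untreated SUM159. It had its lowest A549 share with both drugs (89.6% ± 0.62) and went to 81.3% ± 0.62 in SUM159 with PF-06873600.

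**Figure D3:**
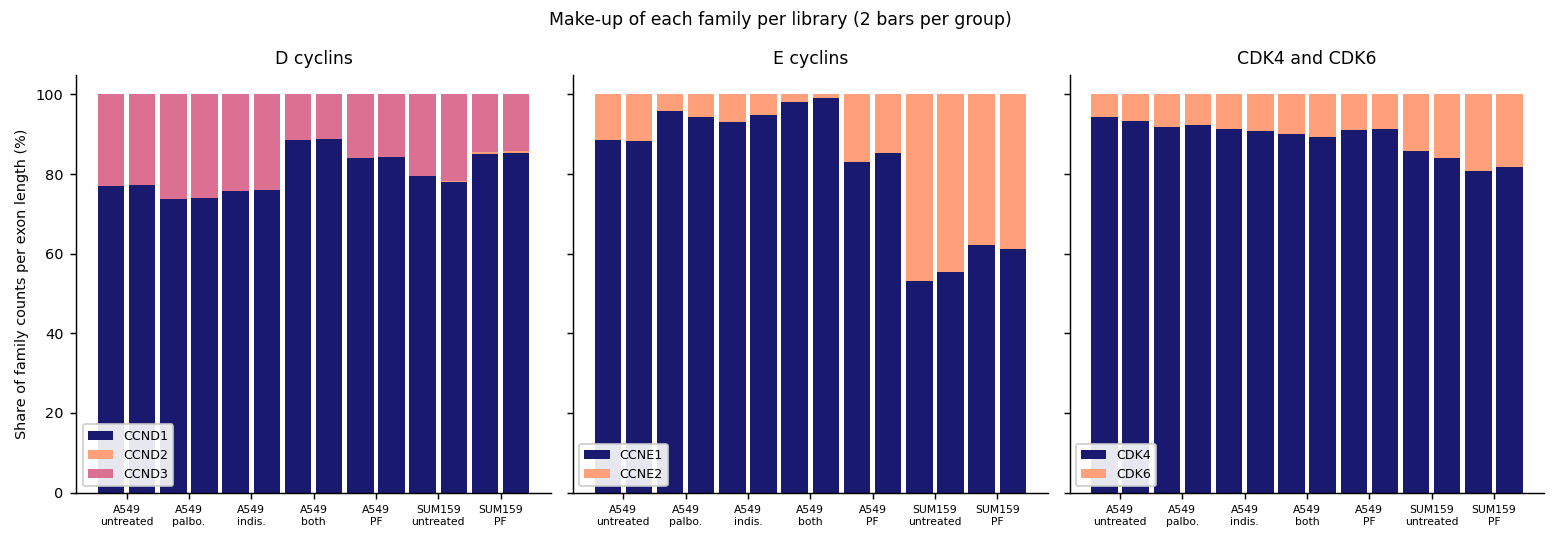
Share of counts per exon length (%) taken by each member of the D cyclins, the E cyclins, and CDK4 with CDK6, as 2 bars per group, 1 for each library. CCND1 takes the most of the D cyclins with both drugs in A549 (88.6%), and CCNE2 takes 45.6% of the E cyclins in untreated SUM159 against 11.6% in untreated A549.

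Genes that act on cyclin-dependent kinases are given next by list, each count to be read against the share of all genes that rose and fell in that comparison. Of 5 tested CDK inhibitor genes, 1 rose and 2 fell with palbociclib (8.30% and 7.40% of all genes) and with indisulam (28.0% and 17.5%). With both drugs 2 rose and 2 fell (35.1% and 30.0%). With PF-06873600, 1 rose and 2 fell in A549 (28.5% and 27.8%), and 1 rose and 3 fell in SUM159 (38.1% and 35.6%). Of the CDK inhibitors, CDKN1A (p21) rose in each treatment, from 41.4 ± 3.2 CPM in untreated A549 to 55.2 ± 1.2 with palbociclib, 380.1 ± 4.2 with indisulam, 675 ± 12 with both drugs and 514 ± 14 with PF-06873600, and from 47.6 ± 4.0 to 96.0 ± 2.0 CPM in SUM159. CDKN2C (p18) fell in each, from 65.9 ± 6.2 to 8.87 ± 0.89 CPM with both drugs and from 51.3 ± 5.1 to 26.8 ± 1.6 CPM in SUM159. CDKN1B (p27) fell in each as well, from 61.3 ± 2.9 CPM in untreated A549 to 25.0 ± 0.39 with both drugs and 18.6 ± 0.43 with PF-06873600. In SUM159, CDKN1B went from 18.9 ± 1.4 to 14.4 ± 0.16 CPM. CDKN2A (p16) had 0 counts in all 10 A549 libraries and at most 0.181 CPM in SUM159, and CDKN2B had 0 counts in A549 as well. RB1 itself was at 42.6 ± 6.5 CPM in untreated A549 and 119.6 ± 1.4 CPM in untreated SUM159.

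Of the CDK-activating kinase, which phosphorylates the activation loop of CDK2 and CDK4, CCNH (cyclin H) went from 23.1 ± 1.4 CPM in untreated A549 to 9.85 ± 0.74 with indisulam and 9.4 ± 0.45 with both drugs (log2 -1.23 ± 0.11 and -1.30 ± 0.11, edgeR adjusted p = 3.7e-07 and 6.5e-08). It stood at 19.3 ± 0.34 CPM with palbociclib. Of 3 members of that complex, 0 rose and 1 fell with indisulam (17.5% of all genes fell) and 2 fell with both drugs (30.0% of all genes fell). With PF-06873600, 0 rose and 2 fell in A549 (28.5% and 27.8% of all genes), and 0 rose and 3 fell in SUM159 (38.1% and 35.6%). CCNH was among them, with log2 changes of -0.29 ± 0.10 in A549 and -0.29 ± 0.07 in SUM159 (edgeR adjusted p = 0.018 and 0.0022). Next come 6 genes that set or remove inhibitory phosphates on CDK1 or CDK2, or signal to those enzymes. Of these, 0 rose and 5 fell with both drugs (35.1% and 30.0% of all genes). CDC25C (log2 -3.34 ± 0.26) and PKMYT1 (log2 -1.84 ± 0.21) moved the most. In SUM159 with PF-06873600, 0 rose and 5 fell (38.1% and 35.6% of all genes), and in A549, 3 rose and 2 fell (28.5% and 27.8%), PKMYT1 by a log2 rise of 1.02 ± 0.16 in A549 and a change of -1.04 ± 0.07 in SUM159. Of 3 CDK4 chaperone genes, all 3 rose in A549 with PF-06873600 (28.5% of all genes), with HSP90AA1 at log2 0.56 ± 0.06, and in SUM159 0 rose and 2 fell (38.1% and 35.6%), HSP90AA1 by 1.17 ± 0.08.

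Of 8 genes for cyclin degradation, 2 rose and 3 fell with both drugs, near the shares of all genes (35.1% and 30.0%), among them SKP2, which targets the CDK inhibitor p27 (log2 -1.05 ± 0.11). In SUM159 with PF-06873600, 0 of these 8 rose and 6 fell (38.1% and 35.6% of all genes), SKP2 by 1.10 ± 0.06. In A549 with that agent 0 rose and 2 fell (28.5% and 27.8% of all genes). Of 13 RB and E2F family genes, 1 rose and 9 fell with both drugs (35.1% and 30.0% of all genes), led by E2F8 (log2 -3.36 ± 0.32) and E2F2 (log2 -2.93 ± 0.20), 6 rose and 2 fell with PF-06873600 in A549 (28.5% and 27.8%), and 2 rose and 9 fell in SUM159 (38.1% and 35.6%). E2F1, which encodes an activating E2F, rose by 0.82 ± 0.10 on the log2 scale with PF-06873600 in A549 and changed by -0.83 ± 0.11 with both drugs.

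The 17 S phase genes, controlled by E2F, are set beside the 9 genes. They are genes of replication and nucleotide synthesis together with the transcription factor gene MYBL2. With both drugs 0 rose and 17 fell, where 35.1% and 30.0% of all genes did, with a median log2 change of -1.70 beside 0.05 over all genes, and GINS2 (log2 -3.03 ± 0.17) and TK1 (log2 -2.95 ± 0.11) changed most. With PF-06873600 in A549, 15 rose and 1 fell, where 28.5% and 27.8% did (median 0.82 beside -0.01), RRM2 from 51.5 ± 2.7 to 189 ± 0.69 CPM. In SUM159, 0 rose and 17 fell, where 38.1% and 35.6% did (median -0.98 beside 0.02). With palbociclib 8 rose and 3 fell, where 8.30% and 7.40% of all genes did (median 0.19 beside -0.01). With indisulam 5 rose and 4 fell, near the 28.0% and 17.5% of all genes (median 0.04 beside 0.08). Untreated SUM159 was higher than untreated A549 in all 17, as were 41.9% of all genes (median 2.17 beside 0.08). The summed level of the 17 genes was 939 and 949.8 CPM in untreated A549, 407 and 414 CPM with both drugs and 1657 and 1695 CPM with PF-06873600. In SUM159 it was 3769 and 3963 CPM untreated and 1984 and 1991 CPM with PF-06873600. Both treated SUM159 libraries were thus above every A549 library in this sum.

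The G2 and mitotic genes CDK1, CCNA2, CCNB1 and CCNB2 fell with both drugs (4 of the 4 tested, median log2 -2.01, where 30.0% of all genes fell) and in SUM159 with PF-06873600 (4 of 4, median -1.54, where 35.6% fell). With PF-06873600 in A549, 3 of these 4 fell and 0 rose (27.8% and 28.5% of all genes), CCNB2 by 1.89 ± 0.11 on the log2 scale (edgeR adjusted p = 1.9e-09).

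**Figure D4:**
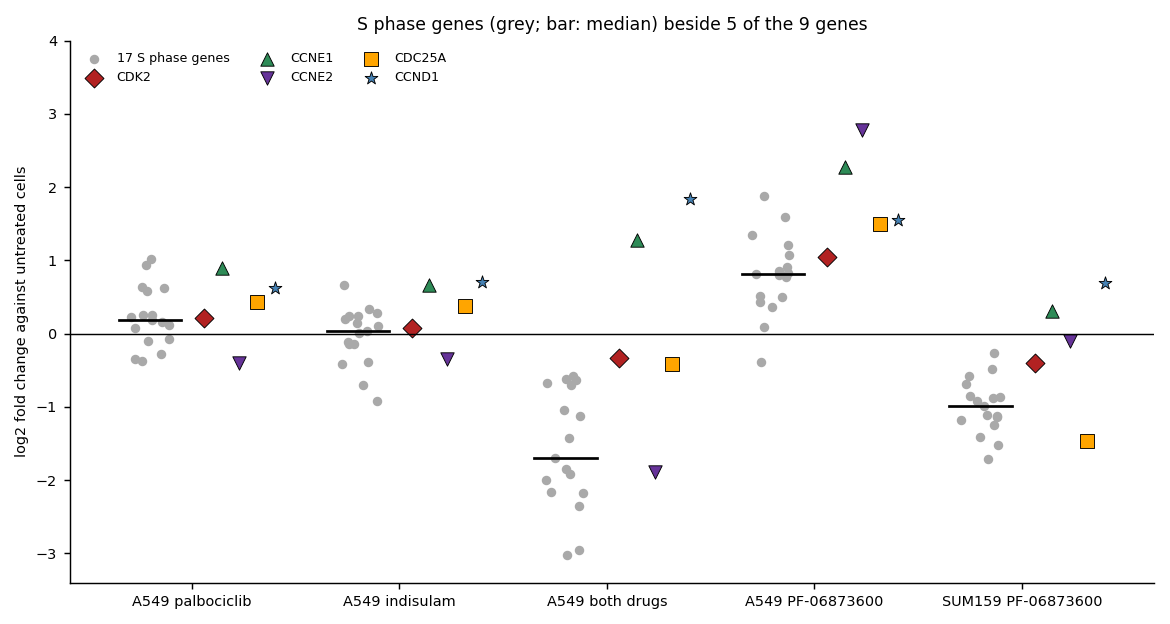
log2 fold change against untreated cells for 17 S phase genes (grey points, with the median as a bar) and for CDK2, CCNE1, CCNE2, CDC25A and CCND1 in 5 treatments. With both drugs all 17 grey points lie below 0 (median -1.70) while CCND1 and CCNE1 lie above it, and in SUM159 with PF-06873600 the grey median is -0.98 with CCND1 and CCNE1 again above 0.

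The genes most like each of the 9 were sought by the root mean square difference of centred log2 CPM (with 1 CPM added) over the 7 group means, among 9930 genes with a mean of at least 10 CPM. CCNE2 was nearest to RRM2 (0.33), CLSPN (0.40) and MYBL2 (0.59), genes of nucleotide synthesis, checkpoint signalling and cell cycle transcription. CDC25A was nearest to UHRF1 (0.17), CTNNAL1 (0.26) and RRM1 (0.29), and CDK2 to TUBG1 (0.11) and RPA2 (0.14). CCNE1 was nearest to PODXL2 (0.22), RGS2 (0.26) and GAMT (0.29), a different set from that of CCNE2. CCND1 was nearest to SYNPO (0.15), PHETA1 (0.18) and MAP1B (0.19), CCND2 to MFGE8 (0.25), CERCAM (0.26) and P4HA2 (0.31), and CDK6 to LAP3 (0.10), AP1M1 (0.10) and BICD2 (0.11). CCND2 was at or under the floor in untreated, palbociclib and indisulam A549, where its value in this search rests mostly on the added 1 CPM. CDK4 and CCND3 spanned 0.61 and 0.89 on the log2 scale over the groups, under the span of 1 set for this search. These are descriptions over 7 groups that share cell lines and libraries.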

How the data were processed

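The authors prepared polyA-selected stranded libraries, sequenced single-end reads and deposited 1 table of raw read counts per gene for each library, per the labels and the study's methods. The submitters' processing notes name GRCh38, HISAT2 2.2.1 and HTSeq, while the use of strand in counting and the annotation release are not given in the sources used here. Symbols, coordinates (GENCODE 44, hg38) and union exon lengths were added here, and start-site sequences came from RefSeq on GRCh38.p14. CPM were computed from the total on genes, and the 9 summary rows were left out of totals (reads ambiguous between genes came to 3.06 to 3.56%).

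Genes kept by filterByExpr were fitted with edgeR 4.0.16 (quasi-likelihood F test, total-count scaling, R 4.3.3) in models of the 10 A549 libraries (15780 genes), the 4 SUM159 libraries (15055) and all 14 (17279), with Benjamini-Hochberg adjusted p called under 0.05. All 9 genes passed each filter, CCND2 only through libraries where it is high. The procedure was tried on simulated counts with the same spread in every library and few changed genes, unlike these data. No result here rests on that trial. Alternatives were TMM, DESeq2 1.42.0, other filters, the compared groups alone, a replicate block and leaving out each library. All 9 genes are described. Of each pathway list, at most 4 called genes per comparison with the largest change are named, while CDKN2A, CDKN2B, RB1 and overlapping genes were named after their values were seen. Some list genes are not reported here. The members and lists were chosen with earlier results of these data known. Floors and intervals cover counting error only.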

Additional observations from a re-analysis of the deposited data

Results flagged for a closer look

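The response to 0.5 µM PF-06873600 differed between the lines by a test of the difference itself (edgeR's quasi-likelihood F test, 2 libraries per group) for 8 of the 9 genes. All 8 differences were below 0, where 27.2% of 17279 genes passed in that direction and 25.8% in the other. SUM159 minus A549, the difference in log2 response was -2.96 for CDC25A, -2.89 for CCNE2, -1.96 for CCNE1 and -1.45 for CDK2. It was -0.87 for CCND3, -0.85 for CCND1, -0.84 for CDK6 and -0.65 for CDK4. CDK2, CDK4 and CDC25A rose in A549 and fell in SUM159. In SUM159 the markers PTPRC and PECAM1, used to look for other cell types, rose as well, with a summed level of that marker list of 20.3 and 21.4 CPM untreated and 45.8 and 45.5 CPM treated, and with CD3E at 0 counts in every library. In A549 the sum was at most 1.73 CPM. Their part in the difference was not tested. With 2 libraries per group, no library could be examined for standing apart from its group.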

How the results depend on the processing

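Most calls of the 9 genes kept their direction and their side of the threshold. Of the alternatives other than leaving out a library, 520 values of single genes stayed the same, 14 were no longer past the threshold, 1 newly passed it and 0 reversed. Of those that left out 1 library, where the lone library of a group is assumed to vary like the other groups, 398 stayed the same, 23 were lost, 4 were gained and 7 reversed, each of the 7 in a comparison with no call. Leaving out libraries put the number of the 9 genes lower in the combination between 3 and 5 against palbociclib and between 2 and 4 against indisulam. Over the left-out libraries, the log2 values that reversed ran from -0.515 to 3.60 for the CCND2 interaction, from -0.00634 to 0.0401 for CCND3 and from -0.0913 to 0.0795 for CDK6 with PF-06873600 in SUM159, from -0.024 to 0.105 for CDK4 in the combination against indisulam, and from -0.233 to 0.104 for the CDK6 interaction. CDK6 against palbociclib newly passed in the combination with only the compared groups (log2 0.19, edgeR adjusted p = 0.015). Of the called genes of the pathway lists, 1449 values stayed the same, 57 were lost and 0 reversed under alternatives other than leaving out a library, and 1107, 85 and 0 when 1 library was left out. The cause of these changes was not tested.

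Shares from raw counts, without division by exon length, moved by construction. In the order untreated, palbociclib, indisulam, both drugs and PF-06873600 in A549, then untreated and PF-06873600 in SUM159, CCND1 made up 73.5, 70.0, 72.1, 86.5, 81.3, 75.4 and 82.3% of D cyclins. CCNE1 made up 81.1, 91.5, 89.6, 97.5, 74.9, 40.0 and 47.3% of E cyclins, and CDK4 79.4, 74.7, 71.9, 68.6, 72.3, 58.8 and 52.3% of CDK4 plus CDK6.

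The replicate numbers did not establish pairing, as deviations of same-numbered libraries correlated between -0.317 and 0.289. A fit with the replicate number as a block left the number of the 9 genes higher and lower as it was. That was 4 and 0 with palbociclib (1258 and 1079 of 15780 genes) and 4 and 1 with indisulam (4368 and 2705). It was 5 and 4 with both drugs (5505 and 4703) and 9 and 0 with PF-06873600 in A549 (4444 and 4339). In SUM159 it was 3 and 3 (5812 and 5474 of 15055 genes). CCND2 is among the 9 here and in the next counts, though it entered the tests only through libraries where it is high. Crossed numbers, tried after seeing negative correlations, gave 4 higher and 0 lower for palbociclib (1556 and 1467 among all genes) and 9 and 0 between untreated lines (7224 and 6351 among all genes). A filter at a mean of 50 counts left CCND2 untested in A549, and fits of the compared groups alone left it untested for palbociclib, indisulam and the untreated lines. Depth limits CCND2 and, with both drugs, CCNE2 (13 and 7 counts).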
